A study of Mus musculus with 12 samples.

Results

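The large subunit of the cytosolic ribosome (60S) is built from ribosomal RNA and a fixed set of proteins. The genes described here encode 41 of those proteins, of 55401 gene IDs in the count files, chosen by name as the 60S proteins that are not one of a pair of paralogs. Expression was not used to choose them, though earlier results of these data were known at the time. Poly(A) RNA was measured in adult mouse hearts of WT animals and of animals with the genotype Rpl3l-/- (called KO), which lack the muscle paralog of the 60S protein gene Rpl3. Each genotype was measured in total heart RNA (Input) and in RNA from ribosomes pulled down through an HA tag (IP), with 3 libraries in each of the 4 groups. Hearts for IP were put in cycloheximide, which stalls elongating ribosomes, and the labels state this for IP hearts only. IP RNA was purified on RNeasy columns and Input RNA with TRIzol, so purification and fraction cannot be told apart. The labels give no tagged gene, no promoter or cell type that carries the tag and no age beyond adult, and nothing in them ties a given Input library to a given IP library through the same animal. Where separate animals are not stated, p-values measure the spread between these libraries, which may be technical.

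The 60S subunit holds the peptidyl transferase centre, where peptide bonds form, and the tunnel through which the new protein leaves. Its proteins are needed in fixed proportion, and cells make them from single-copy genes scattered over many chromosomes, with a large family of processed pseudogenes left behind in the genome. The mRNAs of nearly all of them begin with a 5′ terminal oligopyrimidine (TOP) tract. In many cell types TOP mRNAs shift together between translating ribosomes and untranslated storage particles, under the control of the kinase mTOR and the RNA-binding protein Larp1. Rpl3 sits near the peptidyl transferase centre, and striated muscle can put Rpl3l in its place.

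C and T runs near the annotated start are shown here, since the mRNAs belong to the TOP class, for 4 genes that were among the lowest in IP against Input (Rpl35, Rpl39, Rplp0 and Rpl11) and 3 that were among the highest (Rpl4, Rpl10 and Rpl5). The windows come from RefSeq promoters (build GRCm38.p6), each read 5′ to 3′ on the gene's own strand, with the longest run of C or T within 50 bases of the annotated start in capitals.
Rpl35, chr2:39005117-39005146, minus strand: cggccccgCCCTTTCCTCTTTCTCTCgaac
Rpl39, chrX:37085173-37085194, minus strand: ggtcccggCCTTTCTCTTCTCC
Rplp0, chr5:115559470-115559492, plus strand: ccgcctggTTCTCCTataaaagg
Rpl11, chr4:136053359-136053388, minus strand: gccggaagTCTCCCTCTCTCTTCCTgttct
Rpl4, chr9:64173405-64173434, plus strand: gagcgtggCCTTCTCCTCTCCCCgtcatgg
Rpl10, chrX:74270848-74270865, plus strand: tgggagcgTCTCTTTTCC
Rpl5, chr5:107900500-107900524, plus strand: tacagccaCTCTTTCTCacgtcgct
The promoter table matched 32 of the 41 genes. A run of at least 10 bases of C or T, searched on the gene's strand only, lay within 50 bases of the annotated start in 27 of the 32 (84.4%), against 20.6% of all 27025 genes in the table. Runs of at least 12 bases were in 46.9% against 10.6%. Runs of 15 and 10 bases were found for Rpl4 and Rpl10, and runs of 18 and 14 for Rpl35 and Rpl39. Runs of 7 and 9 bases were the longest for Rplp0 and Rpl5, and 7 was also the median over all genes in the table. None of the 7 printed runs began at the annotated start itself: counted in bases from it, they began at -7 for Rpl35, 36 for Rpl39, 11 for Rplp0, 13 for Rpl11, 26 for Rpl4, 40 for Rpl10 and -20 for Rpl5. The runs of Rpl39 and Rpl10 reach the end of the searched window. Whether a run is the 5′ terminal tract of the mRNA in these hearts was not tested.

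The libraries held 169359 to 710868 counts, and 39 of the 41 genes passed the count filter among 6596 tested genes. Levels are given as CPM, counts scaled to library size with edgeR's TMM factors. Rpl3l, the deleted gene, checked the labels: Input had 211, 294 and 266 CPM in WT and 65.7, 25.8 and 48.6 in KO. In IP it had 258, 261 and 263 CPM in WT and 2.24, 2.49 and 7.93 in KO. The labels do not state which part of the gene is deleted. The summed level of 10 ventricular cardiomyocyte markers was 62800 to 71100 CPM in Input and 64100 to 73300 in IP, with 1 of them, Actc1, listed at 0 in every library. The 6 atrial markers summed to 6390 to 11300 CPM in Input and 308 to 1050 in IP, and the 7 adipocyte markers to 127 to 667 and 15.6 to 52.2. The 10 endothelial markers summed to 3990 to 5470 CPM in Input and 2590 to 3440 in IP. Erythroid genes took 1.71% to 17.3% of a library's counts, highest in WT IP replicate 2 and next in WT Input replicate 3 (13.9%). In whole-heart RNA, fewer cells of a type and less RNA per cell cannot be told apart.

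The genes of the 60S proteins took a smaller share of the ribosome-bound RNA than of the total RNA, in both genotypes. Their summed share of all counts was 2.74%, 2.55% and 2.67% in the 3 WT Input libraries and 2.95%, 2.66% and 2.52% in KO Input. In IP it was 1.09%, 0.877% and 1.43% in WT and 1.19%, 1.28% and 1.26% in KO. Every IP library lay below every Input library, and the WT IP libraries were more spread than the KO ones. As scaled sums this was 28240 ± 2543 CPM in WT Input, 27620 ± 4173 in KO Input, 11200 ± 1783 in WT IP and 11510 ± 263 in KO IP (SD, n = 3 each). WT IP replicate 3 lay above its group's mean for 38 of the 39 measured genes, and replicate 2, the library with the most erythroid counts, for 4. The part of erythroid RNA in this spread was not tested. For each count of the 40S genes, the small-subunit counterparts, there were 1.14 ± 0.00323 counts of 60S genes in WT Input, 1.10 ± 0.0335 in KO Input, 1.26 ± 0.0181 in WT IP and 1.22 ± 0.0585 in KO IP.

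Counts per kilobase of transcript ran over a wide range among the genes. Dividing by annotated transcript length raises short genes, and whether it suits these nanopore cDNA reads was not tested. Without it Rplp1 and Rpl41 still had the highest means in WT Input, 1657 and 1512 CPM. Rpl36, at 1042 CPM, then lay below Rpl13a at 1227 and Rpl32 at 1218. Per kilobase the highest in WT Input was Rplp1, a P stalk protein, at 3426, 2908 and 3630 CPM per kb in the 3 libraries. Rpl41, the shortest of the proteins, had 2624, 2248 and 3465 CPM per kb and Rpl36 2966, 2291 and 2905. These 3 and the next, Rpl32, overlapped between neighbours in the order, and the lowest library of Rpl32 lay above the highest of Rpl38, which came after it. At the other end were Rpl35 at 198, 249 and 244 CPM per kb, Rpl9 at 77.1, 82.9 and 95.6 and Rpl10 at 71.2, 88.3 and 84.3. For each of these 3, a near-identical copy elsewhere in the genome held most of the reads counted at the gene and its copies, as described further on. Rpl24 and Rpl35a had no count in any library, where 3 counts would be 4.22 to 17.7 CPM. This bounds their level only if their reads were assigned to them, which was not tested. Both lie in annotated overlaps: 71.5% of the exonic bases of Rpl24 are shared with same-strand exons of Gm28037, and all of Rpl35a lies inside Gm17106 on the opposite strand. Gm28037 and Gm17106 also had no count. The sources used here do not say how reads in overlapping genes were counted. Of the measured genes, Rpl13a shares 59.3% of its exonic bases with same-strand exons of Gm45713 and snoRNA loci. Rpl35, Rpl23a, Rpl5 and Rpl30 share 68.3%, 55.4%, 46.6% and 34.7% with exons on the opposite strand. Rpl13 had 3418 counts, though all of its exonic bases lie inside other annotated genes, Gm20388 among them. Overlap as a reason for the absent counts was not tested.

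In WT hearts 36 of the 39 measured genes were lower in IP than in Input and none was higher, at adjusted p under 0.05 in edgeR's quasi-likelihood test, where 8.67% of all tested genes were lower and 5.37% higher. The median log2 fold change was -1.48, a 2.78-fold lower level in IP, against a median of 0.02 over all tested genes. All 3 IP libraries lay below all 3 Input libraries for 37 of the 39, against 17.8% of all tested genes. In KO hearts 34 were lower and none higher, against 9.78% and 6.64% of all tested genes, with a median of -1.30 (2.47-fold) beside 0.01 over all tested genes. The libraries separated in the same way for 35 genes, against 15.5% of all. All 34 genes called in KO were also called in WT. Without WT IP replicate 2 and WT Input replicate 3, the libraries with the most erythroid counts, 30 were lower in WT, with a median of -1.30, and 4.26% of all tested genes were lower in that fit. Scaling by library totals alone gave 34 and 31 lower members, against 6.69% and 6.79% of all tested genes, and it changed the split over all genes in KO from 645 lower and 438 higher to 448 lower and 599 higher. Atrial, adipocyte and endothelial marker sums were lower in IP too, and their part in the result was not tested. Of the 10 endothelial markers themselves, 1 was lower and 2 higher in WT, and 4 were lower and 1 higher in KO. Fibroblast, macrophage, and smooth muscle and pericyte marker sums overlapped between the fractions in both genotypes.

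**Figure D1:**
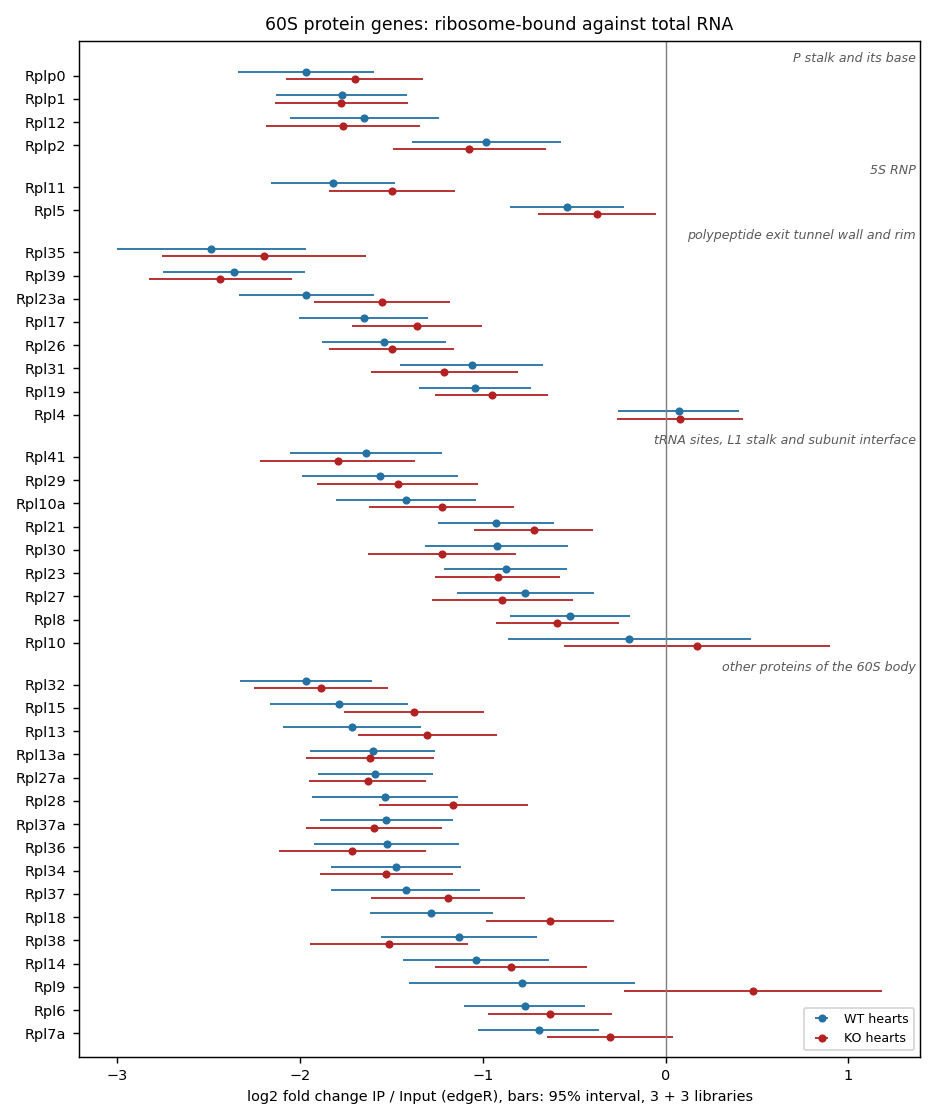
Log2 fold change of IP against Input for each of the 39 measured genes of 60S proteins, grouped by role, in WT (blue) and KO hearts (red), with 95% intervals from edgeR (3 IP and 3 Input libraries per genotype). Nearly all points lie left of 0, from Rpl35 at -2.49 and Rpl39 at -2.36 in WT to Rpl4 at 0.07.

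The P stalk is the flexible arm that recruits and activates the GTPases of elongation, and all 4 of its genes were lower in IP in both genotypes (medians -1.71 in WT and -1.73 in KO). Rplp0, which anchors the stalk to the ribosome, had 1031, 807 and 949 CPM in WT Input and 194, 243 and 281 in WT IP (log2 fold change -1.97, SE 0.18, adjusted p 2.44e-08). In the KO libraries it had 942, 1055 and 675 CPM in Input and 271, 303 and 249 in IP (log2 fold change -1.70, SE 0.18, adjusted p 3.21e-07). Every Input library lay far above every IP library. Rplp1, one of the acidic proteins that dimerise on the stalk, had 1710, 1451 and 1811 CPM in WT Input and 433, 492 and 539 in WT IP (log2 fold change -1.77, SE 0.17, adjusted p 8.7e-08). Its KO libraries had 2033, 1917 and 1513 CPM in Input and 673, 460.2 and 474 in IP (log2 fold change -1.77, SE 0.18, adjusted p 1.15e-07), with no overlap between the fractions. Its partner Rplp2 had a smaller difference, from 607, 419 and 535 to 246, 238 and 313 CPM in WT (log2 fold change -0.98, SE 0.20, adjusted p 0.00116). In KO it went from 613, 619.5 and 335 to 255, 223 and 276 CPM (log2 fold change -1.07, SE 0.20, adjusted p 0.000594). The fractions did not overlap, but KO Input replicate 3 came near to the IP libraries. Rpl12, at the stalk base, went from 726, 723 and 389 CPM in KO Input to 210.2, 169.6 and 169.8 in KO IP (log2 fold change -1.77, SE 0.20, adjusted p 8.41e-07), and was lower in WT as well (log2 fold change -1.65).

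Rpl5 and Rpl11 carry the 5S ribosomal RNA into the subunit and, when assembly fails, bind Mdm2, the ubiquitin ligase of p53. Rpl11 had 1105, 955 and 1129 CPM in WT Input and 299, 284 and 323 in WT IP (log2 fold change -1.82, SE 0.16, adjusted p 2.19e-08). KO hearts had 1069, 981 and 692 CPM in Input and 333, 296 and 349 in IP (log2 fold change -1.50, SE 0.17, adjusted p 5.43e-07). Rpl5 had 583, 586 and 670.1 CPM in WT Input and 396, 423 and 453 in WT IP (log2 fold change -0.54, SE 0.15, adjusted p 0.0179). In KO Rpl5 had 533, 542 and 589 CPM in Input and 483, 445 and 354 in IP, and did not pass (log2 fold change -0.38, SE 0.16, adjusted p 0.108, 95% interval -0.70 to -0.05). The IP libraries of Rpl5 lay below the Input libraries in both genotypes. Its WT call was lost when WT Input replicate 3 was left out, and also on leaving out replicate 1 or replicate 2 of WT IP (adjusted p up to 0.105).

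Of the 8 genes whose proteins line the exit tunnel or surround its mouth, 7 were lower in IP in each genotype (medians -1.60 and -1.43). Rpl39, a small protein in the tunnel wall, had 785, 677 and 910.5 CPM in WT Input and 167, 132 and 163 in WT IP (log2 fold change -2.36, SE 0.19, adjusted p 3.88e-09). In KO it had 1164, 793 and 767 CPM in Input and 161, 147 and 197 in IP (log2 fold change -2.44, SE 0.19, adjusted p 2.18e-09). This was the lowest log2 fold change of all 39 genes in KO and the next to lowest in WT, and the fractions were far apart in all libraries. Rpl35 and Rpl23a sit at the tunnel mouth, where the signal recognition particle docks. Rpl35 had 187, 235 and 231 CPM in WT Input and 41.1, 29.7 and 45.5 in WT IP (log2 fold change -2.49, SE 0.25, adjusted p 1.11e-07). In KO Rpl35 had 237, 169.6 and 97.3 CPM in Input and 38.0, 34.9 and 39.7 in IP (log2 fold change -2.20, SE 0.27, adjusted p 2.12e-06), low throughout. Rpl23a had 920, 793 and 882 CPM in WT Input and 194, 197 and 278 in WT IP (log2 fold change -1.97, SE 0.18, adjusted p 2.27e-08), and was lower in KO IP too (log2 fold change -1.55). The exception was Rpl4, whose long loop narrows the tunnel. Rpl4 had 590.4, 539 and 593 CPM in WT Input and 623, 492 and 706 in WT IP, with a log2 fold change of 0.07 (95% interval -0.26 to 0.40). In the KO libraries it had 438, 627 and 519 CPM in Input and 548, 567 and 555 in IP (log2 fold change 0.08, 95% interval -0.27 to 0.42). Its Input and IP libraries overlapped in both genotypes, and both intervals lay above the median of the 39 genes.

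**Figure D2:**
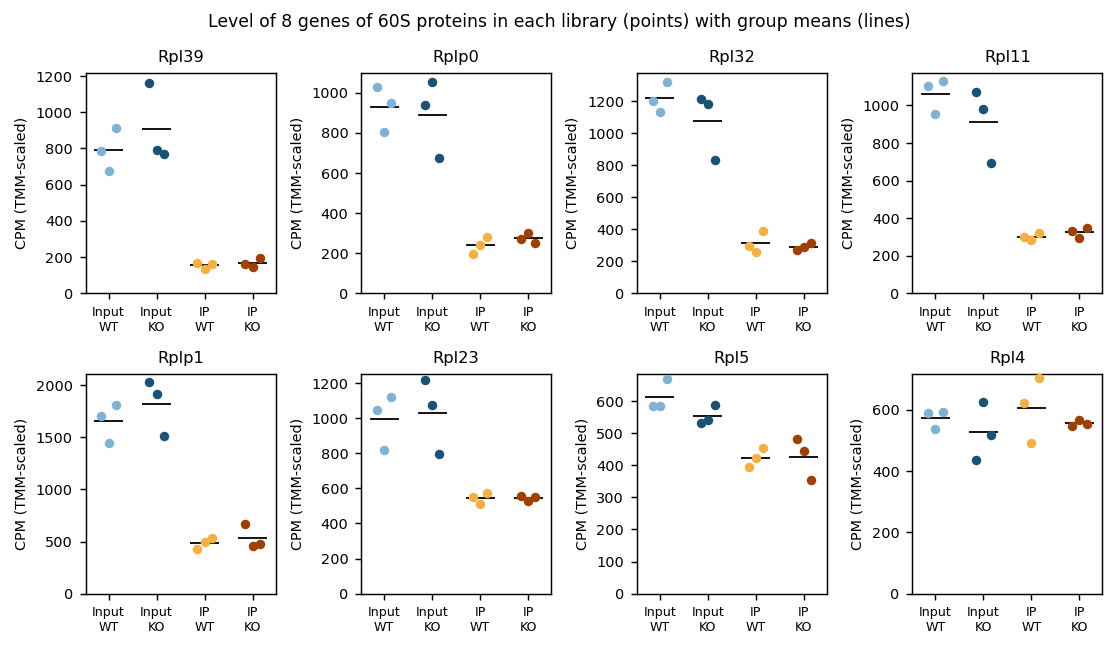
Level of 8 genes in every library, in CPM after TMM scaling: each point is 1 library, each line the mean of 3, from left to right WT Input, KO Input, WT IP and KO IP. Rpl39, Rplp0, Rpl32, Rpl11, Rplp1 and Rpl23 show a step between the fractions, Rpl5 a smaller one, and Rpl4 overlaps.

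Genes for proteins of the transfer RNA sites, the L1 stalk and the face towards the 40S subunit had the least negative medians of the groups with more than 2 genes, -0.92 in each genotype, with 8 of 9 measured genes lower in each. Rpl41, a short peptide at the bridge to the 40S subunit, had 1427, 1223 and 1885 CPM in WT Input and 453, 461 and 549 in WT IP (log2 fold change -1.64, SE 0.20, adjusted p 2.22e-06). KO hearts had 1767, 1490 and 956 CPM in Input and 483, 333 and 411 in IP (log2 fold change -1.79, SE 0.21, adjusted p 7.88e-07). Input was above IP in every library, with KO Input replicate 3 the lowest of the Input libraries. Rpl8, which reaches towards the peptidyl transferase centre, had 493, 439.8 and 548 CPM in WT Input and 329, 289 and 418 in WT IP (log2 fold change -0.52, SE 0.16, adjusted p 0.0283). In KO it had 526, 524 and 519 CPM in Input and 342, 357 and 339.6 in IP (log2 fold change -0.59, SE 0.16, adjusted p 0.0133). The fractions stood close together in WT, where the call was lost without any 1 of 4 of the 12 libraries in turn (adjusted p up to 0.155). In KO it was lost without 1 of the 12 (adjusted p up to 0.0588). Rpl10, which joins the subunit last and contacts the transfer RNA, had 56.9, 70.6 and 67.3 CPM in WT Input and 56.8, 29.7 and 84.2 in WT IP (log2 fold change -0.20, 95% interval -0.86 to 0.46). In the KO libraries it had 47.5, 81.1 and 32.4 CPM in Input and 60.4, 67.3 and 58.7 in IP (log2 fold change 0.17, 95% interval -0.56 to 0.90). These levels overlapped and were low in every library. The others in the group ran in WT from -1.56 for Rpl29 to -0.77 for Rpl27, with Rpl10a of the L1 stalk at -1.42 and Rpl23, where the assembly factor Eif6 binds, at -0.88.

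Among the other proteins of the subunit's body, 15 of 16 measured genes were lower in IP in WT and 14 in KO (medians -1.50 and -1.34). Rpl32 had 1200, 1134 and 1321 CPM in WT Input and 295, 258 and 387 in WT IP (log2 fold change -1.97, SE 0.18, adjusted p 1.7e-08). KO hearts had 1215, 1184 and 832 CPM in Input and 271, 292 and 314 in IP (log2 fold change -1.88, SE 0.18, adjusted p 5.81e-08). All of its Input libraries stood well above its IP libraries. Rpl15 had 842, 995 and 795 CPM in WT Input and 241, 218 and 309.8 in WT IP (log2 fold change -1.79, SE 0.18, adjusted p 1.55e-07). Rpl36 had 1442, 996 and 994 CPM in KO Input and 275, 387 and 379 in KO IP (log2 fold change -1.71, SE 0.20, adjusted p 7.4e-07). Neither overlapped between the fractions, and both were also lower in the other genotype (log2 fold change -1.38 for Rpl15 in KO and -1.52 for Rpl36 in WT). The genes that did not pass were Rpl9 in both genotypes and Rpl7a in KO. Rpl7a had 569, 454 and 497 CPM in KO Input and 472, 373 and 392 in KO IP (log2 fold change -0.30, 95% interval -0.65 to 0.04), with KO IP replicate 1 above the lowest Input library, and it was lower in WT IP (log2 fold change -0.70, SE 0.16, adjusted p 0.00422). Rpl9 had 56.9, 61.1 and 70.5 CPM in WT Input and 31.2, 31.4 and 47.1 in WT IP, where its libraries did not overlap (log2 fold change -0.78, 95% interval -1.40 to -0.17, adjusted p 0.0829). In KO it had 32.9, 40.6 and 37.8 CPM in Input and 38.0, 68.6 and 44.4 in IP, which overlapped (log2 fold change 0.48, 95% interval -0.23 to 1.19).

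To see which genes moved apart from the set, the libraries were scaled to the summed counts of the 41 genes instead. A value of 0 then means that a gene differed between fractions as much as the set did. In WT 8 genes were lower and 9 higher on this scale, where 0.985% and 78.2% of all tested genes were called. In KO it was again 8 and 9, against 1.02% and 71% of all tested genes. With most tested genes called, the adjustment over all genes changed the members' p-values little. At an unadjusted p under 0.05 there were 18 members in WT and 17 in KO. The share of all tested genes at that unadjusted threshold was not counted on this scale. Scaling to the members' own sum also sets some of them below 0 and others above it. Lower in both genotypes were Rpl39 (log2 fold change -1.0 in WT and -1.16 in KO), Rpl35 (-1.16 and -0.89), Rpl32 (-0.63 and -0.61), Rplp0 (-0.62 and -0.43) and Rplp1 (-0.42 and -0.51). Rpl11, Rpl15 and Rpl23a passed in WT, and Rpl12, Rpl36 and Rpl41 in KO. Higher in both were Rpl4 (1.41 in WT and 1.32 in KO), Rpl10 (1.10 and 1.45), Rpl5 (0.81 and 0.87), Rpl8 (0.82 and 0.66), Rpl7a (0.64 and 0.95), Rpl6 (0.56 and 0.61) and Rpl21 (0.42 and 0.55). Rpl23 and Rpl27 passed in WT, and Rpl9 and Rpl18 in KO. Several of these values depend on reads counted at near-identical copies, described next. With copies added Rpl10 was 0.22 in WT (adjusted p 0.302) and 0.75 in KO, and Rpl35 was -0.46 and -0.73. Rplp2, not called before, was then higher, at 0.73 and 0.53, while Rpl39 (-1.08 and -1.21) and Rpl4 (1.33 and 1.28) moved little. The count of lower genes in KO was 3 without KO Input replicate 1 and 3 without KO IP replicate 3. It was 5 without WT Input replicate 1, without KO Input replicate 2 and without KO IP replicate 2. Whether a gene passed in one genotype and not in the other is not a difference between them, and none passed the test of the difference.

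Ribosomal protein genes have near-identical copies, mostly processed pseudogenes, and a read that fits both can be counted at either. Loci with at least 95% identity over at least 80% of the coding sequence took 89.6% of the reads at Rpl9 and its copies, 87.0% for Rpl10, 84.5% for Rpl35 and 64.1% for Rplp2. The shares were 25.5% for Rpl21, 21.9% for Rpl41, 20.6% for Rpl29 and 3.1% for Rplp0. The copies with the most counts were Rpl9-ps6 with 2308, Rpl10-ps3 with 2279, Gm2000 (the copy of Rpl35) with 2852 and Wdr89, annotated as a gene of its own that carries an Rplp2 sequence, with 3523. Which locus made these reads was not tested, so the levels of Rpl9, Rpl10, Rpl35, Rplp2, Rpl21, Rpl41 and Rpl29 are uncertain.

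With the counts of the copies added to each gene, Rpl9 was 659, 605 and 674 CPM in WT Input and 321, 340.2 and 408 in WT IP, and now passed (log2 fold change -0.87, SE 0.15, adjusted p 0.000277). In KO Rpl9 with its copies was 584, 624 and 665 CPM in Input and 362, 416 and 331 in IP (log2 fold change -0.75, SE 0.16, adjusted p 0.00158). The fractions were then apart in all libraries of both genotypes. Rpl10 with its copies was 602.5, 673 and 779.8 CPM in WT Input and 298, 268 and 443 in WT IP (log2 fold change -1.03, SE 0.19, adjusted p 0.000461). In KO it was 507, 756 and 465 CPM in Input and 433, 408 and 420.1 in IP, which did not pass (log2 fold change -0.46, SE 0.19, adjusted p 0.108). Rpl35 stayed among the lower genes with its copies (log2 fold change -1.73 in WT and -1.95 in KO), and Rplp2 was lower by less (-0.55 and -0.68). In total 38 genes were then lower in WT and 35 in KO, against 8.67% and 9.74% of all tested genes. Adding copies was chosen after the data were seen.

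**Figure D3:**
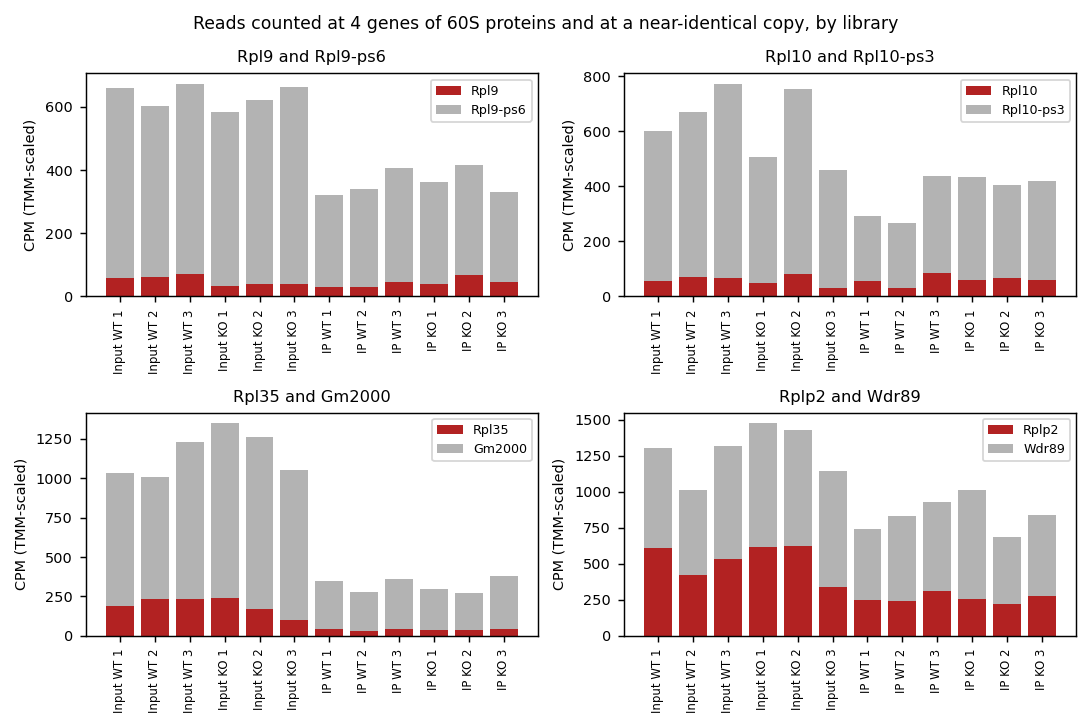
CPM counted at Rpl9, Rpl10, Rpl35 and Rplp2 (red) and, stacked on top, at the near-identical copy with the most reads (grey), in each of the 12 libraries. Over all libraries the grey part holds more reads than the red one in each panel, and for Rpl9, Rpl10 and Rpl35 it holds most of them.

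Log2 fold changes were least negative for the longest coding sequences. Across the 39 genes the log2 fold change of IP against Input correlated with the logarithm of coding length with Pearson's r of 0.43 in WT and 0.572 in KO (Spearman's rho 0.327 and 0.573). This is a description across genes, which share the 12 libraries and their depth. For 7 genes the copies took at least 20% of the reads at gene and copies. Without them Pearson's r was 0.474 and 0.676 over 32 genes and Spearman's rho 0.276 and 0.542. The 12 genes with coding sequences under 400 nt, such as Rpl39 with 153 nt and Rpl41 with 75, had medians of -1.50 in WT and -1.56 in KO. The 15 with 400 to 599 nt had medians of -1.54 and -1.36, so that in WT the shorter groups lay close together. The 12 with at least 600 nt had medians of -0.90 and -0.74, and among them were Rpl4 with 1257 nt, Rpl5 with 891 and Rpl8 with 771. Rplp0, with 951 nt, lay below that median, at -1.97 in WT and -1.70 in KO. Other tested genes had higher medians, in steps upward with length, of -0.48, -0.23 and 0.08 in WT for coding sequences under 400, 400 to 599 and at least 600 nt, with r of 0.219 over 6407 genes. In KO their medians were -0.55, -0.26 and 0.09. With the trend of the log2 fold change with transcript length in other genes removed, 32 of the 39 genes were lower in WT, with a median of -1.04, and 28 in KO, with a median of -0.83. All tested genes were then lower in 6.12% and 7.17% of cases. The part of length in the result was not otherwise tested.

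**Figure D4:**
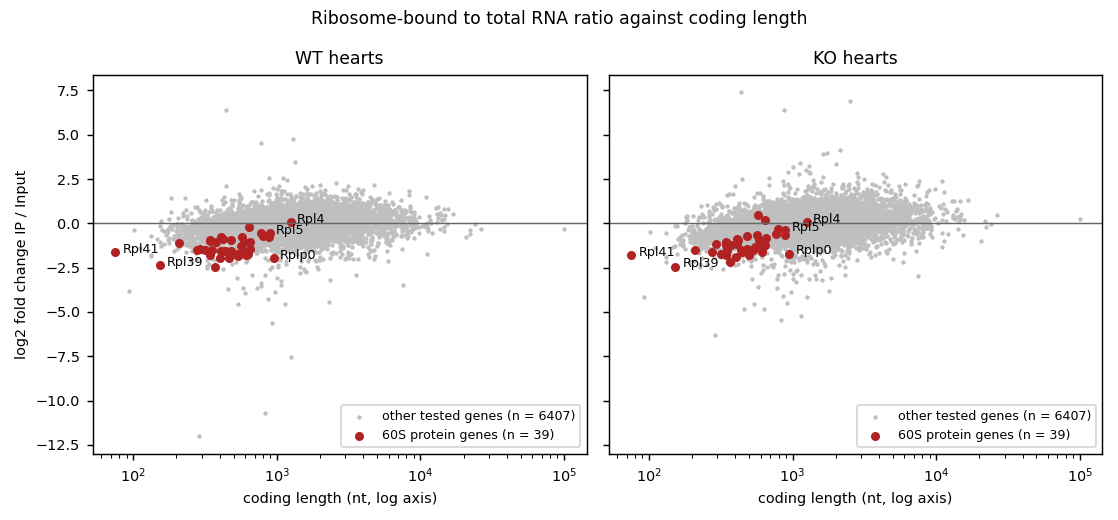
Log2 fold change of IP against Input plotted against coding length on a log axis, for 39 genes of 60S proteins (red) and 6407 other tested genes with a coding sequence, other cytosolic ribosomal protein genes left out (grey), in WT (left) and KO hearts (right). Most red points lie below 0, with Rpl4, the longest, at 0.07 in WT and Rpl39 and Rpl41 at the short end at -2.36 and -1.64.

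KO and WT hearts were compared to ask whether loss of Rpl3l goes with a change of the other 60S genes. None of the 39 passed the test in Input, none in IP, and none in the test of the IP to Input ratio between genotypes, where edgeR called 0.182%, 0.091% and 0.091% of all tested genes in either direction. Lower calls made up 0.0303%, 0.0606% and 0.0606% of all tested genes in Input, in IP and for the ratio, and higher calls 0.152%, 0.0303% and 0.0303%. At an unadjusted p under 0.05 there were 2 genes in Input, 1 in IP and 2 for the ratio, beside 7.11%, 5.2% and 7.02% of all tested genes. DESeq2 and limma-voom called none of the 39 either. The median log2 fold changes were -0.06 in Input, 0.02 in IP and 0.09 for the ratio, beside medians of -0.01, 0.00 and 0.01 over all tested genes. The 95% intervals of 38 of the 39 genes lay within 1 log2 unit of 0 in Input, as did 38 in IP and 35 for the ratio.

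Rpl18, a protein of the subunit's body, had all KO Input libraries below the WT ones, 409, 372 and 427 against 496, 442 and 609 CPM (log2 fold change -0.36, SE 0.17, adjusted p 0.676). Its IP libraries had the opposite order, 291, 237 and 252 CPM in KO and 218, 190 and 229 in WT (log2 fold change 0.29, SE 0.17, adjusted p 0.965). The difference of its ratio between genotypes was 0.65 (SE 0.24, unadjusted p 0.0109, adjusted p 0.568). Its libraries were apart in both fractions without passing over all genes. Rpl17, at the tunnel mouth, had 273, 274 and 273 CPM in KO IP and 192, 177 and 259 in WT IP (log2 fold change 0.39, SE 0.17, adjusted p 0.920), and Rpl38, known for its part in the translation of Hox mRNAs in embryos, had 1102, 793 and 686 CPM in KO Input and 742, 546 and 705 in WT Input (log2 fold change 0.38, SE 0.20, adjusted p 0.736, 95% interval -0.04 to 0.80). All KO libraries of Rpl17 were above the WT ones in IP, and Rpl38 overlapped. Rpl9 and Rpl18 were the 2 genes whose KO libraries were all below WT in Input, and Rpl17 and Rpl18 the 2 with all above in IP, against 6% and 5.26% of all tested genes. No member had all KO libraries above WT in Input or all below in IP, where 6.29% and 5.72% of all tested genes did.

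Rpl9 had the largest difference of the 39 genes in each of the 3 comparisons, with a log2 fold change of -0.76 in Input (95% interval -1.48 to -0.03, adjusted p 0.676) and 0.51 in IP (95% interval -0.09 to 1.10). Its ratio differed by 1.26 (95% interval 0.33 to 2.20, unadjusted p 0.0103, adjusted p 0.561). With its copies added the values were -0.05 in Input, 0.06 in IP and 0.12 for the ratio. Rpl7a, next in p for the ratio, had a difference of 0.39 (SE 0.23, adjusted p 0.779). On the scale of the members' own sum none passed in any of the 3 comparisons (lowest adjusted p 0.861 in Input, 0.998 in IP and 0.814 for the ratio), where edgeR called 0.0455% of all tested genes lower and 0.121% higher in Input and 0.0758% and 0.0455% in IP. For the ratio it called 0.0606% lower and 0% higher. At an unadjusted p under 0.05 there were 1, 0 and 1 of the 39, and the share of all tested genes was not counted. Rpl3, the 60S gene paired with Rpl3l and not one of the 41, did pass: it had 482, 424 and 422 CPM in KO Input and 209, 239.9 and 240.5 in WT Input (log2 fold change 0.95, SE 0.17, adjusted p 0.0102), and 239, 204 and 211 in KO IP and 76.6, 101 and 79.1 in WT IP (log2 fold change 1.35, SE 0.18, adjusted p 0.000171).

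**Figure D5:**
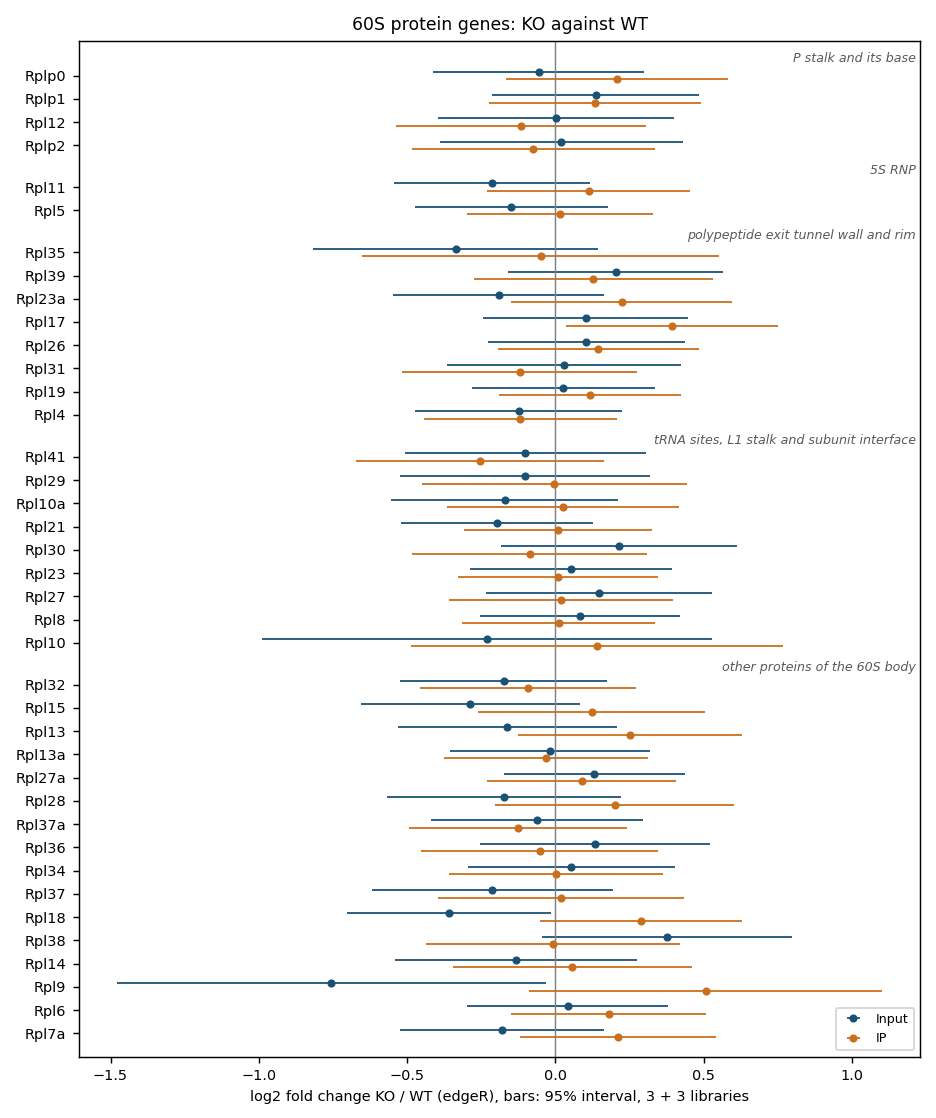
Log2 fold change of KO against WT for each of the 39 measured genes of 60S proteins in Input (blue) and IP (orange), with 95% intervals from edgeR (3 KO and 3 WT libraries per fraction). The points scatter around 0, from Rpl9 at -0.76 in Input to Rpl9 at 0.51 in IP, and none passed over all tested genes.

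Other gene groups of the pathway were read from the same fit. Over all tested genes, 8.67% were lower in IP in WT and 9.78% in KO, and 5.37% and 6.64% were higher. All 32 tested genes of 40S proteins were lower in IP in both genotypes, with medians of -1.47 in WT and -1.46 in KO, close to those of the 60S genes. The lowest was Rps12 (-2.67 in WT and -2.51 in KO). Of 8 tested genes from 60S paralog pairs, 3 were lower in WT and 6 in KO (medians -0.47 and -1.21). The deleted gene Rpl3l is among the 8 and among the 6 lower in KO. Rpl22, which pairs with Rpl22l1, had 446, 355 and 494 CPM in WT Input and 72.4, 71.0 and 85.9 in WT IP (log2 fold change -2.50, SE 0.20, adjusted p 3.88e-09). Rpl3 was lower in IP in both genotypes (log2 fold change -1.43 and -1.03), while Rpl3l had 0.01 in WT and -3.37 in KO. In the test of the ratio between genotypes, Rpl3l was the only gene of the 8 called (log2 fold change -3.38, adjusted p 0.00538). Of 17 other mRNAs with a known TOP tract, 8 were lower in WT, and 7 were lower and 1 higher in KO (medians -0.42 and -0.68). The translation elongation factor Eef1a1 had 522, 499 and 580.3 CPM in WT Input and 146, 165 and 173 in WT IP (log2 fold change -1.73, SE 0.19, adjusted p 2.91e-07). The TOP mRNA of Tpt1 had a log2 fold change of -2.16 in WT and -2.04 in KO. Both had Input and IP libraries that did not overlap in WT.

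Regulators of these mRNAs and factors that assemble the subunit were read in the same way. Of 12 tested regulators of TOP and ribosomal protein mRNAs, 1 was lower and 1 higher in WT, and 2 were lower and 2 higher in KO. The lower ones made up 8.33% in WT and 16.7% in KO, beside 8.67% and 9.78% of all tested genes. Higher calls made up 5.37% and 6.64% of all tested genes. Larp1 was higher in IP, with 66.4, 65.9 and 60.9 CPM in WT Input and 96.5, 139 and 109 in WT IP (log2 fold change 0.81, SE 0.26, adjusted p 0.0382). Eif4ebp1, the mTOR target that blocks cap-dependent initiation, was lower, with 171, 176 and 141 and 52.5, 77.6 and 80.8 CPM (log2 fold change -1.23, SE 0.21, adjusted p 0.000201). Neither overlapped between the WT fractions. Of 16 tested 60S assembly factors none passed in WT by edgeR. In KO Rsl1d1 was lower (log2 fold change -0.91, SE 0.28, adjusted p 0.0272), a share of 6.25% beside 9.78% of all tested genes. Its KO libraries had 102, 88.5 and 140.5 CPM in Input and 73.8, 58.6 and 42.85 in IP. Sbds, which helps release Eif6 from the new subunit, was higher in KO (log2 fold change 1.12, SE 0.35, adjusted p 0.0304), as were 6.64% of all tested genes. Sbds had 29.2, 44.25 and 10.8 CPM in KO Input and 64.85, 73.6 and 55.5 in KO IP. Its level in KO Input replicate 3 lay under the 3-count floor of 17.7 CPM. Of 45 tested genes of the mitochondrial large subunit, 4 were lower in WT, and 8 were lower and 1 higher in KO (medians 0.07 and -0.15). Their shares of lower genes, 8.89% and 17.8%, stood beside 8.67% and 9.78% of all tested genes.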

How the data were processed

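Poly(A) RNA was taken on oligo(dT) beads, and direct cDNA libraries were multiplexed and run on a nanopore MinION, per the labels' protocols. The authors deposited raw read counts per gene for each of the 12 libraries. Per the submitters' processing notes, minimap2 2.14, DESeq2 1.34.0 and build GRCm38 were used, without their roles. The annotation and the counting rule, strand included, are not given in the sources used here. Of 55401 gene IDs, 55141 matched GENCODE M21, which gave names, lengths and overlaps.

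From these counts edgeR 4.0.16 (R 4.3.3) kept 6596 genes with filterByExpr (minimum count 10, minimum total 15), scaled by TMM, and fitted 1 mean per group over all 12 libraries. Its quasi-likelihood F test gave 5 comparisons: IP against Input in each genotype, KO against WT in each fraction, and the difference of the ratios. P-values were adjusted over all tested genes by Benjamini-Hochberg, with a threshold of 0.05. Standard errors and 95% intervals came from the F statistic. A further fit scaled libraries to the members' summed counts. Copies were found with blastn 2.17.0. DESeq2 1.42.0, limma 3.58.1 and other settings were alternatives. The model was tested on simulated data.

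The smallest library, with 169359 counts, had 3 counts at 17.7 CPM and the largest, with 710868, at 4.22 CPM. These floors cover counting error only. Pairs of replicates differed beyond sampling noise (chi-square per degree of freedom 2.84 to 14.5), so all were kept as separate libraries. The members and gene lists were chosen with earlier results of these data known. Per-library values are given for the 8 called members with the largest change in each comparison, or the 3 with the smallest p where none was called. They are also given for the 3 highest and 3 lowest ratios and levels per kb, for 8 members chosen by role, for Rpl3 and Rpl3l, and for up to 2 genes of each other list. Rpl7a, Rpl8 and other members outside this rule were named for their place in the ratios.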

Additional observations from a re-analysis of the deposited data

How the results depend on the processing

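Over 25 alternatives the number of lower members ran from 30 to 38 in WT and from 28 to 35 in KO. The share of all tested genes that was lower moved too. It was smallest with no count filter, 602 in WT and 515 in KO of 16598 genes. With the stricter count filter it was largest, 500 and 508 of 3272. Of the 36 calls in WT, 30 were made in every alternative and 34 without any single library. Of the 34 in KO it was 28 and 32. Leaving out each library in turn gave 34 to 36 lower members in WT and 32 to 34 in KO, with medians of -1.63 to -1.36 and -1.41 to -1.26. Of 6977 to 7174 tested genes, 388 to 613 were lower in WT in these fits and 441 to 613 in KO. On the scale of the members' own sum, leaving out each library gave 6 to 9 lower and 7 to 10 higher members in WT. In KO it gave 3 to 8 lower and 8 to 10 higher, and shares of all tested genes were not counted on that scale. The medians were -1.04 in WT and -0.83 in KO with the length trend removed, and -1.30 in WT without the pair of libraries highest in erythroid counts, an alternative chosen after the data were seen. In no alternative was a member called between genotypes.

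Library totals alone gave medians over all genes of 0.10 in WT and 0.15 in KO for IP against Input and 0.12 for KO against WT in IP. In WT they split all calls 441 lower and 386 higher, against 572 and 354 with TMM. The sign of genes near 0 turned in some settings, and the cause was not tested. Rpl10 in WT was 0.20 with the length trend removed and 0.14 without the pair of libraries highest in erythroid counts. Leaving out each library in turn gave Rpl10 -0.57 to 0.11 in WT, highest without WT IP replicate 2, and -0.0340 to 0.60 in KO, lowest without KO Input replicate 3. It gave Rpl4 -0.0415 to 0.21 in WT, lowest without WT IP replicate 3, and -0.0446 to 0.23 in KO, lowest without KO Input replicate 1. With copies added Rpl9 was -0.75 and Rpl10 -0.46 in KO.

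Same-numbered libraries did not deviate together (r of -0.0939 to 0.0217 over 18 pairs), so the numbers were not read as pairs. With the replicate number as a block, 36 members were lower in WT and 34 in KO (medians -1.48 and -1.31), and none between genotypes. Over all 6596 tested genes 539 and 603 were then lower in IP. On the scale of the members' own sum 7 members were lower in WT and 5 in KO with that block. Rpl9, Rpl10 and Rpl35 had the fewest counts of the measured members, and 89.6%, 87.0% and 84.5% of the reads at them and their copies were counted at the copies. Rpl24 and Rpl35a had no counts.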

Other observations

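The annotated length of the untranslated regions showed little relation to the difference between fractions across the 39 members. These lengths are those of an annotated transcript chosen for each gene, such as 538 bases for the 5′ untranslated region of Rpl35. Whether the mRNAs in these hearts have them was not tested. For the 5′ untranslated region Pearson's r with the log2 fold change of IP against Input was -0.137 in WT and -0.19 in KO, and for the 3′ untranslated region it was 0.0632 and 0.0242. The 32 tested genes of 40S proteins differed from this for the 5′ untranslated region, with r of 0.41 in WT and 0.359 in KO. For their 3′ untranslated region r was -0.187 and -0.125. These are descriptions across genes that share the 12 libraries. The longest C or T run near any annotated start of a gene had a median of 11 bases over 32 members, against 7 over all 27025 genes in the promoter table.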
